A study of Mus musculus with 21 samples.

Results

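The 9 genes described here, Trpv1, Trpa1, Trpm8, Trpm3, Trpv2, Trpm2, Trpm4, Trpc6 and Trpc5, encode transient receptor potential (TRP) channels, and were measured by RNA sequencing of whole mouse dorsal root ganglia. They were taken by name, whatever their values, from the 24381 genes listed in both deposited count tables, and all 9 passed the filter on low counts in every comparison. The 21 libraries came from mice carrying a floxed Tmem45b allele alone (flox) or together with Cre recombinase from the Mrgprd locus (Tmem45b-flox::Mrgprd-cre, here cKO), so that the flox allele was common to all animals. Cre from Mrgprd acts in a class of nonpeptidergic nociceptors and their lineage, and the whole ganglion also holds many cells in which Tmem45b is not deleted. Untreated libraries fell by their names into an LDRG set (3 flox, 3 cKO) and a con/ko set (3 flox, 4 cKO), and a further 4 flox and 4 cKO libraries came from the CFA model. CFA usually stands for complete Freund's adjuvant, an emulsion that causes inflammation, and its dose, site and time, like the strain, age and sex of the mice, are not given in the sources used here. In addition, each con/ko name carries code letters, F or M and then C or L, which the labels do not explain.

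TRP channels are cation channels of the plasma membrane that open to heat, cold, chemicals, lipids or intracellular calcium. In the dorsal root ganglion, where the cell bodies of somatosensory neurons lie, they are best known as the sensors of nociceptors and thermoreceptors. TRPV1 answers to noxious heat, acid and capsaicin, TRPA1 to electrophilic irritants such as mustard oil, and TRPM8 to cooling and menthol. TRPM3 is a further heat-activated channel, and both TRPV1 and TRPA1 take part in signalling by itch mediators.

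Total counts ranged from 53364389 to 72502294 per library. All 8 sensory neuron markers (Avil, Prph, Isl1, Pou4f1, Tubb3, Scn10a, Scn9a and Snap25) were above 0 in every library. Their summed level was 8551 to 8926 CPM (counts scaled to the library size) in the LDRG set, 7912 to 8951 in the CFA libraries and 6628 to 7470 in the con/ko set. The targeted gene, Tmem45b, fell in untreated cKO libraries by 1.02 on the log2 scale (SE 0.07, adjusted p = 4.83e-05 by the quasi-likelihood F test of edgeR). In the CFA libraries it did not separate the genotype labels, being at 65.9, 116, 136 and 80.2 CPM where the label is flox and at 108, 105, 67.6 and 61.8 CPM where it is cKO. Xist, transcribed from the inactive X chromosome, was at 283 to 459 CPM in the CFA libraries and at 0.101 to 0.330 CPM in the LDRG set. It was at 284 to 320 CPM in the 4 F-coded and at 0 to 0.206 CPM in the 3 M-coded con/ko libraries. Treatment and the sex of the mice can therefore not be told apart between the CFA and LDRG libraries. Nothing in the labels says that libraries of a group came from separate mice, so the p-values speak only of sample-to-sample spread, and some of that spread may be technical.

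The order of abundance was led by the heat and irritant channels. Per kilobase of annotated exon, so that genes of different length can be compared, Trpv1 averaged 40.1 CPM over the 21 libraries, Trpa1 18.8, Trpv2 16.2, Trpm8 8.92, Trpc6 4.79, Trpm2 3.22, Trpm3 3.16, Trpm4 2.77 and Trpc5 0.171. Trpv1 was above Trpa1 in 21 of 21 libraries, by a ratio of means of 2.13. Trpa1 and Trpv2 were not separated, Trpa1 being the higher in 15 of 21, nor were Trpm2 and Trpm3 (12 of 21) or Trpm3 and Trpm4 (15 of 21). Trpv2 was above Trpm8 in 20 of 21 libraries, Trpm8 above Trpc6 in 21 and Trpc6 above Trpm2 in 20. Exon length enters this order strongly for Trpm3, whose annotated exons span 24437 bases against 3681 for Trpv1. The exons of Trpm2 (12459 bases) and Trpm4 (10826) are also long, and each length joins the exons of all annotated transcripts. Among other TRP family genes, Trpm7, a channel that carries its own kinase domain, was at 7.04 CPM per kilobase, the lysosomal channel Mcoln1 at 6.86 and Trpc1 at 6.02. Trpc2 and Trpv5 had no counts in any library.

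**Figure D1:**
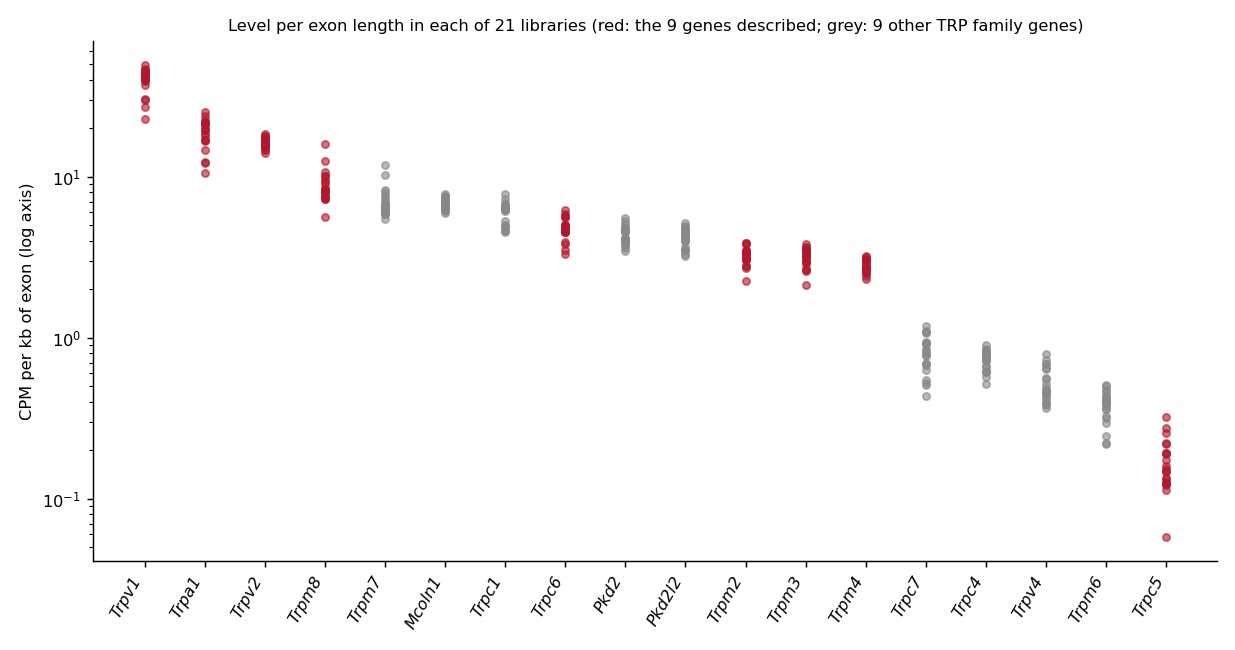
CPM per kilobase of exon (log axis) for TRP genes, 1 point per library (21 libraries), with the 9 genes described in red and 9 other family members in grey. Trpv1 is highest of those drawn, at a mean of 40.1 CPM per kilobase, and Trpc5, at 0.171, stands apart from the other red genes.

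In the GENCODE annotation of mm10, the build of the files, Trpv1 lies on chromosome 11 at 73234292-73261242 (plus strand) and Trpv2 on the same chromosome at 62574486-62600515 (plus). Trpa1 lies on chromosome 1 at 14872648-14918862 (minus) and Trpm8 on chromosome 1 at 88277661-88389293 (plus). Trpm3 spans 856365 bases of chromosome 19 at 22139046-22995410 (plus), Trpm2 is at 77907722-77970563 of chromosome 10 (minus) and Trpm4 at 45302632-45333780 of chromosome 7 (minus). Trpc6 is at 8544142-8680741 of chromosome 9 (plus) and Trpc5 at 144381671-144688180 of chromosome X (minus). An antisense transcript, 4930453O03Rik, overlaps 8.20% of the exon bases of Trpm8, and others overlap 1.44% and 1.13% of those of Trpm3, so that reads there cannot be assigned to a strand without a stranded count, which the labels do not state.

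The genotype comparison asked whether deleting Tmem45b in Mrgprd-lineage neurons altered TRP channel transcripts in untreated ganglia, and none of the 9 genes passed the test. The estimates were small, from -0.18 for Trpc6 to 0.25 for Trpm8 on the log2 scale. Over all 16706 genes tested, 0.00599% were called, that is Tmem45b alone, and 1125 had an unadjusted p under 0.05, none of them among the 9. DESeq2, run as an alternative, called 34 genes and again none of the 9.

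Trpv1 in the LDRG set was at 182, 160 and 163 CPM in flox and at 171, 165 and 168 CPM in cKO libraries, so the genotypes overlapped. In the con/ko set it was at 83.7, 136 and 149 CPM in flox and at 100, 111, 110 and 154 CPM in cKO libraries, again overlapping. Its difference was -0.03 (95% interval -0.30 to 0.24), and these data therefore leave room for a change of up to about that size in either direction. The spread within the con/ko groups was wide for Trpv1, with an SD of 34.6 CPM (n = 3) in flox against 11.8 CPM (n = 3) in LDRG flox libraries.

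Trpa1 in the LDRG set was at 101, 91.5 and 90.8 CPM in flox and at 82.5, 76.1 and 82.5 CPM in cKO libraries, every cKO library below every flox library. Among all 16928 genes, 10.2% likewise had no overlap between the genotypes in this set, and of the 9 only Trpa1 did, so its separation is no more than is common there. That difference, -0.24 (SE 0.06), had an adjusted p of 0.99 by the edgeR test in the LDRG set alone. In the con/ko set the values were 45.1, 71.7 and 71.0 CPM in flox and 51.9, 52.8, 62.2 and 71.8 CPM in cKO libraries, with a difference of -0.07 (SE 0.19), and over both sets it was -0.15 (SE 0.11, adjusted p = 0.857).

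Trpm8, the cooling sensor, leaned the other way. It was at 36.5, 26.5 and 38.7 CPM in LDRG flox, 42.8, 34.6 and 47.5 CPM in LDRG cKO, 37.9, 38.2 and 38.6 CPM in con/ko flox and 45.3, 34.5, 59.0 and 39.2 CPM in con/ko cKO libraries. The groups overlapped in both sets, and the difference of 0.25 (SE 0.13) had an adjusted p of 0.767.

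The other 6 genes gave intervals that spanned 0, as did those of Trpv1, Trpa1 (95% interval -0.39 to 0.08) and Trpm8 (-0.02 to 0.52). Trpm3 differed by -0.11 (95% interval -0.27 to 0.04) and Trpv2, a channel of large neurons and immune cells, by -0.08 (-0.20 to 0.03). Trpm2, a calcium-permeable channel opened by ADP-ribose and oxidative stress, differed by 0.03 (-0.23 to 0.29), and Trpm4, a calcium-activated monovalent cation channel, by -0.05 (-0.19 to 0.10). For the receptor-operated channels Trpc6 and Trpc5 the differences were -0.18 (-0.41 to 0.05) and 0.16 (-0.43 to 0.76). Trpc5 was scarcely detected, at 20 to 90 counts per library, and its interval was the widest of the 9. The Trpc6 estimate differed by set, being 0.04 in the LDRG set alone and -0.36 in the con/ko set alone. In the con/ko set, flox replicate 4 and cKO replicates 4, 5 and 6 are coded C and the rest L. Genotype is thus partly mixed with the code letter in that set, and so in the test over both sets. Trpc6 was at 16.7 to 19.998 CPM in the C-coded and at 23.2 to 28.7 CPM in the L-coded libraries. None of the 9 had a genotype difference that differed between the sets by the test of that difference (0% of 16928 genes called, 937 at an unadjusted p under 0.05 and none of the 9, 44 genes with DESeq2).

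**Figure D2:**
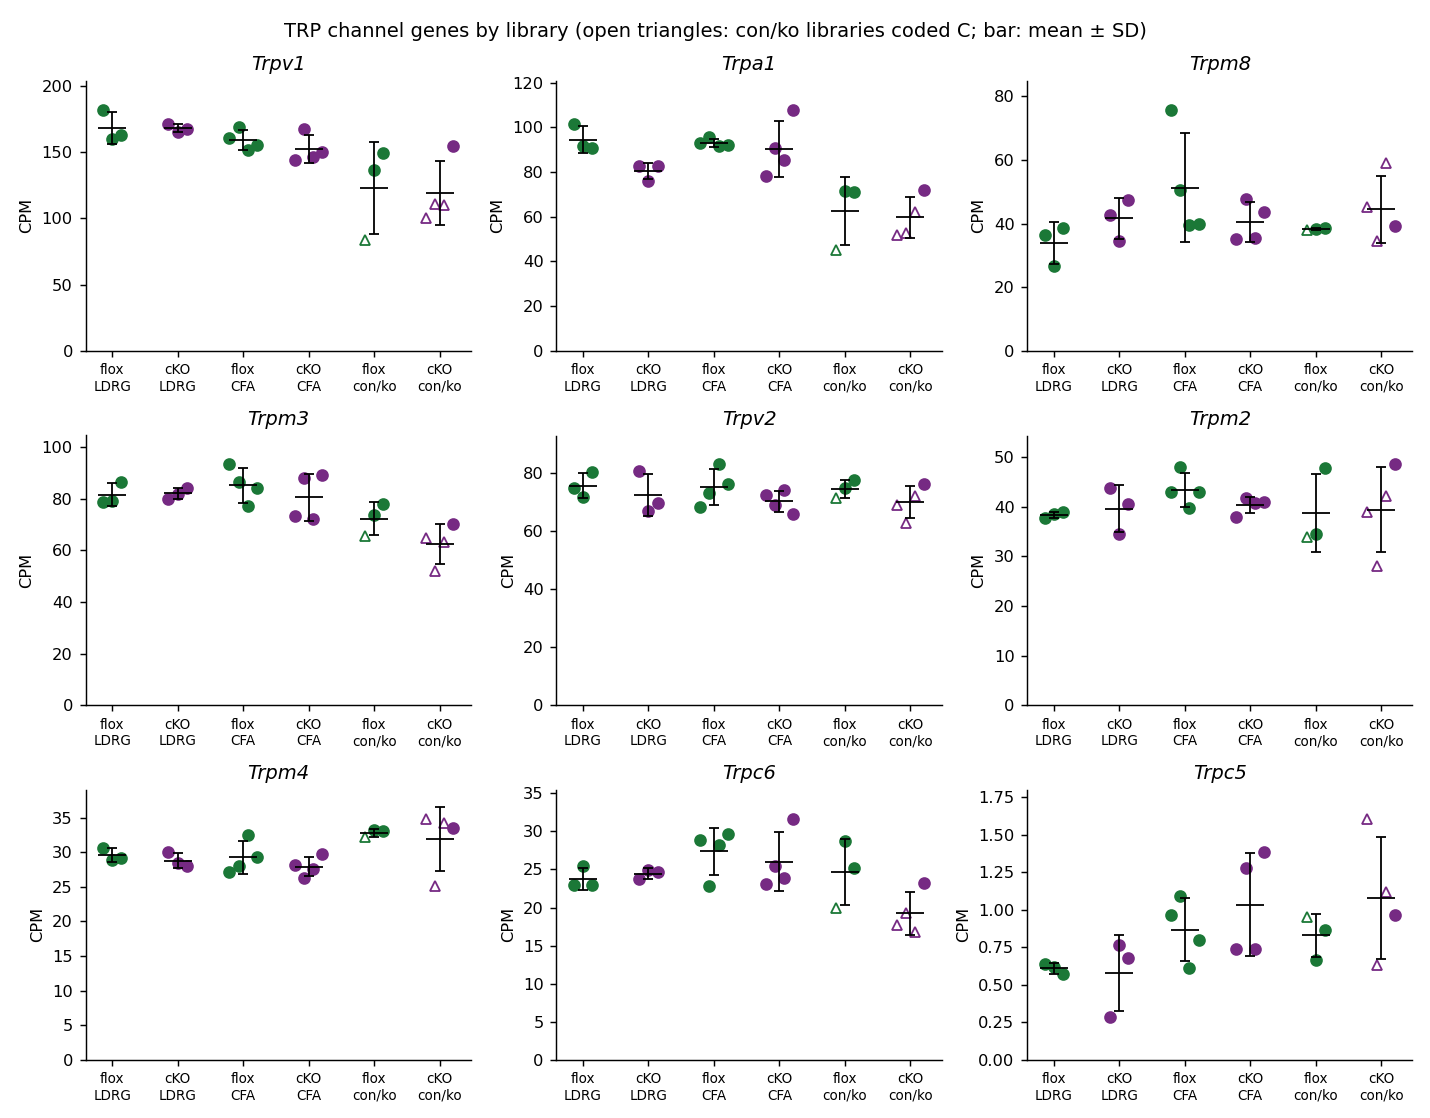
CPM of each gene in each library, in 6 groups by genotype (green flox, purple cKO) and library set; open triangles are con/ko libraries coded C, and bars give the mean ± SD. Trpv1 and Trpa1 are lowest in the C-coded con/ko libraries (83.7 to 111 and 45.1 to 62.2 CPM), while Trpv2 keeps to 62.9 to 82.96 CPM in all 21 libraries.

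In the CFA libraries the genotype labels likewise did not separate any of the 9 genes, and Tmem45b itself did not follow those labels. No gene of 16116 was called (0%), 799 had an unadjusted p under 0.05, none of them among the 9, and DESeq2 called 19 genes. Trpv1 was at 160, 169, 151 and 155 CPM under the flox label and at 144, 167, 146 and 150 CPM under the cKO label (difference -0.06, 95% interval -0.19 to 0.08). Trpa1 was at 92.9, 95.6, 91.4 and 92.2 CPM under flox and at 78.4, 90.5, 85.2 and 108 CPM under cKO (-0.03, -0.24 to 0.18). The labelled groups overlapped for both genes, and the Trpa1 values were far closer together under the flox label (SD 1.81 CPM, n = 4) than under the cKO label (SD 12.6 CPM, n = 4).

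Trpm8 had the largest negative difference of the 9 in CFA, and it rested on 1 library. Its level was 75.7, 50.4, 39.4 and 39.7 CPM under the flox label and 35.0, 47.6, 35.4 and 43.6 CPM under the cKO label, the first flox library being the highest of all 21. The difference was -0.33 (SE 0.21, adjusted p = 0.938, edgeR) and became -0.09 (SE 0.14, adjusted p = 0.897) without that library. The test of whether the genotype difference in CFA differs from that in untreated libraries gave -0.60 for Trpm8 (SE 0.25, unadjusted p = 0.029, adjusted p = 1 by edgeR), and -0.35 (SE 0.22) without the same library. In that test 0% of 16928 genes were called, with 707 at an unadjusted p under 0.05, of which Trpm8 was the only one of the 9, and DESeq2 called 8 genes. Beside it, the 4 other markers of TRPM8 cold neurons (Foxp2, Cdh8, Rxfp1 and Gpr26) summed to 69.5 CPM in the high library and to 54.8, 57.4 and 64.2 CPM in the other 3 libraries labelled flox. Their part in the Trpm8 value was not tested.

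For the other 8 genes the interaction lay between -0.14 (Trpm2, SE 0.17) and 0.11 (Trpa1, SE 0.16), with adjusted p = 1 in each case by edgeR, leaving Trpv1 at -0.04 (SE 0.18) and Trpc5 at 0.10 (SE 0.42).

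**Figure D3:**
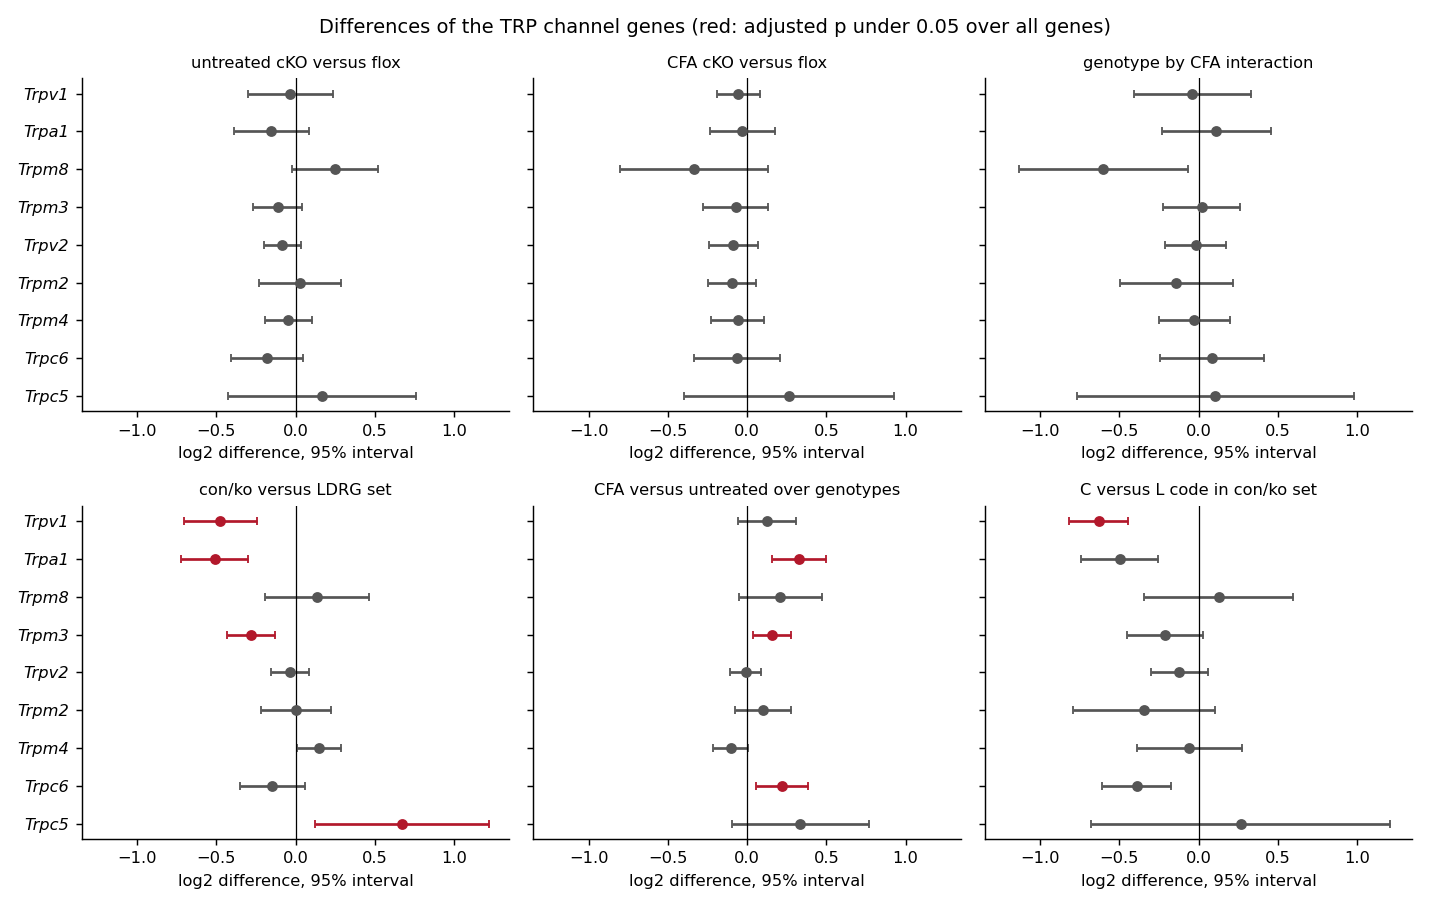
Log2 differences of the 9 genes with 95% intervals in 6 comparisons; red marks an adjusted p under 0.05 over all genes tested (edgeR). No gene is red in the genotype panels or their interaction, and Trpv1, Trpa1 and Trpm3 lie to the left of 0 in the comparison of con/ko with LDRG libraries (-0.48, -0.51 and -0.28).

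The larger differences in TRP channel transcripts lay between the sets of untreated libraries. Trpv1, Trpa1 and Trpm3 were lower in the con/ko than in the LDRG set, by 0.48, 0.51 and 0.28 on the log2 scale, whereas Trpv2 (-0.03, SE 0.06) and Trpm2 (0.00, SE 0.11) had estimates near 0. The sets also differ in count table and in Xist, which among them was high only in the F-coded con/ko libraries, so sex and set are partly mixed. The comparison is of library sets and not of a treatment, and differences were common in it, with 48.7% of 16928 genes called, 25.7% higher and 23% lower. Against that background 3 of the 9 genes were lower and 1 was higher.

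Trpv1 ran from 160 to 182 CPM in the 6 LDRG libraries and from 83.7 to 154 CPM in the 7 con/ko libraries, without overlap. The difference was -0.48 (SE 0.11, 1.39-fold lower, adjusted p = 0.00159, edgeR). Trpa1 ran from 76.1 to 101 CPM in the LDRG and from 45.1 to 71.8 CPM in the con/ko set, also without overlap (-0.51, SE 0.10, 1.43-fold lower, adjusted p = 0.000426). Trpm3, at 78.8 to 86.5 against 51.9 to 77.8 CPM, likewise did not overlap (-0.28, SE 0.07, 1.22-fold lower, adjusted p = 0.00321). Between these sets 4237 of 16928 genes did not overlap, and 3 of the 9, so such a separation was common. The summed sensory neuron markers were also lower in the con/ko set, as given above, and markers of several other cell types were higher there. Fibroblast and perineurial markers (6 genes) summed to 438 to 546 CPM in the LDRG and 967 to 1756 CPM in the con/ko set, macrophage markers (8 genes) to 47.3 to 58.5 and 91.9 to 233 CPM, and red cell genes (5 genes) to 33.7 to 53.8 and 1588 to 4317 CPM. Neutrophil markers (5 genes) summed to 0.776 to 2.92 CPM in the LDRG set, where S100a8, Ly6g, Retnlg and Cxcr2 were at 0 in some libraries, and to 80.6 to 1212 CPM in the con/ko set. In bulk tissue, fewer cells of a type and less RNA per cell cannot be told apart. Expressed per 1000 CPM of sensory neuron markers, a ratio computed after the values were seen, Trpv1 was 18.3 to 20.4 in the LDRG set and 12.6 to 22.3 in the con/ko set, so that on this scale the sets overlapped. Trpa1 overlapped too, at 8.88 to 11.4 and 6.81 to 10.6, and so did Trpm3, at 8.83 to 10.1 and 7.64 to 11.7. On the same scale Trpm4 and Trpc5 did not overlap, at 3.22 to 3.44 and 0.0326 to 0.0894 in the LDRG set and 3.70 to 4.95 and 0.0922 to 0.226 in the con/ko set. The share of all genes without overlap on this scale was not computed.

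Trpc5 was the gene called higher, at 0.288 to 0.767 CPM in the LDRG and 0.629 to 1.60 CPM in the con/ko set (0.67, SE 0.26, adjusted p = 0.0417, edgeR). The sets overlapped, and the call was lost on leaving out any of 8 libraries, with an adjusted p of 0.105 without LDRG cKO replicate 1, which had 20 counts. The others were each of the 3 LDRG flox libraries (0.0629, 0.0683 and 0.0766), con/ko flox replicates 4 and 6 (0.085 and 0.0718) and con/ko cKO replicates 4 and 6 (0.0911 and 0.0577). Trpm4 was at 28.0 to 30.7 CPM in the LDRG and at 25.1 to 34.8 CPM in the con/ko set (0.15, SE 0.07, adjusted p = 0.0729). Without con/ko cKO replicate 5, its lowest library at 25.1 CPM, Trpm4 was called higher (0.20, SE 0.05, adjusted p = 0.00174).

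Promoter sequence is shown for Trpv1 and Trpm3, which were lower together between the sets. RefSeq start sites on GRCm38.p6 gave entries for 7 of the 9 genes, Trpa1 and Trpm4 being without one. The 250 bases before the start of Trpv1 are chr11:73233899-73234148 and those before the first listed start of Trpm3 are chr19:22138796-22139045, both on the plus strand, 5′ to 3′, with motif matches in capitals.
Trpv1: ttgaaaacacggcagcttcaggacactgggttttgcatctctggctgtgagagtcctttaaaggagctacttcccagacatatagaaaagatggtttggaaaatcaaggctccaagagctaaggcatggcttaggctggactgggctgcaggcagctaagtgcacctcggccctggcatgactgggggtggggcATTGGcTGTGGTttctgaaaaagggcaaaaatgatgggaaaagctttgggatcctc
Trpm3: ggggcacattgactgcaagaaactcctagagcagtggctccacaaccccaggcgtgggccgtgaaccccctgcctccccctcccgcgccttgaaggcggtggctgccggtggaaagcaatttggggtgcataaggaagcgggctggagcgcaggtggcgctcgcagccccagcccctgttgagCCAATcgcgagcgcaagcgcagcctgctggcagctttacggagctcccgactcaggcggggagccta
Motifs were searched on both strands as plain letters, in 300-base windows that also hold 50 bases after the start. In Trpv1 the capitals mark ATTGG at position -56 from the start, which is the CCAAT box read on the reverse strand, and next to it the RUNX site TGTGGT at -50. In Trpm3 they mark the CCAAT box at -67. CCAAT was found in 37.4% and TGTGGT in 16.8% of 32851 promoter windows, so these are common letters. TATAAA (13.6%), GGGCGG (35.7%) and TGANTCA (7.81%) had no match in either window. A match is a description of the letters and not of a bound site, and the window of a second Trpm3 start held ACCACA, the reverse of TGTGGT, at -166.

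The con/ko libraries did not form a uniform group for the nociceptor channels. Trpv1 was lower in those coded C than in those coded L, and Trpa1 and Trpc6 did not overlap between the letters but did not pass the edgeR test. The 4 libraries coded C are flox replicate 4 and cKO replicates 4, 5 and 6, and the 3 coded L are flox replicates 5 and 6 and cKO replicate 7. This comparison was added after the values were seen, with genotype as a term, and 1.36% of 16440 genes were called in it, of which 206 were lower and 18 higher in C. The letters did not overlap for 21.9% of 16928 genes and for 5 of the 9.

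Trpv1 was at 83.7, 100, 111 and 110 CPM in the C-coded and at 136, 149 and 154 CPM in the L-coded libraries. Every C value lay below every L value, in both genotypes, and the difference was -0.63 (SE 0.08, 1.55-fold lower, adjusted p = 0.0357, edgeR). It was the only one of the 9 genes called. The estimate kept its direction without each of the 7 libraries in turn (-0.75 to -0.52), but the call was lost without flox replicate 4 (adjusted p = 0.0896), flox replicate 6 (0.096) or cKO replicates 4 (0.112), 6 (0.0862) or 7 (0.232). With the F or M letter as a further term it was -0.58 (adjusted p = 0.224).

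Trpa1 was at 45.1, 51.9, 52.8 and 62.2 CPM in C-coded and 71.7, 71.0 and 71.8 CPM in L-coded libraries, without overlap, and its difference of -0.50 (SE 0.10) missed the threshold in edgeR (adjusted p = 0.0638) and passed it in DESeq2 (0.00115). Trpc6 was at 19.998, 17.8, 19.3 and 16.7 CPM in C-coded and 28.7, 25.2 and 23.2 CPM in L-coded libraries, also without overlap (-0.39, SE 0.09, adjusted p = 0.0847 in edgeR and 0.0191 in DESeq2). Trpm3 and Trpv2 did not overlap between the letters either, yet with small differences (-0.21, SE 0.10, adjusted p = 0.316, and -0.12, SE 0.08, adjusted p = 0.438). For Trpm8 the C-coded libraries, at 34.5 to 59.0 CPM, enclosed the L-coded ones, at 38.2 to 39.2 CPM (0.13, SE 0.20, adjusted p = 0.774).

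The summed sensory neuron markers overlapped between the letters, at 6628 to 7470 CPM in C-coded and 6674 to 7448 CPM in L-coded libraries. Per 1000 CPM of these markers, Trpv1 was 12.6 to 16.3 in C-coded and 18.8 to 22.3 in L-coded libraries, and Trpa1 6.81 to 8.32 and 9.65 to 10.6. Both stayed apart on this scale, for which no share over all genes was computed. The L-coded values overlap those of the LDRG set for Trpv1 (18.3 to 20.4) and lie within them for Trpa1 (8.88 to 11.4). Markers of some neuron classes differed in the same direction. Nonpeptidergic nociceptor markers (6 genes, Mrgprd among them) summed to 764 to 906 CPM in C-coded and 988 to 1137 CPM in L-coded libraries, and C-low-threshold mechanoreceptor markers (5 genes) to 477 to 623 and 708 to 814 CPM. Peptidergic markers (6 genes) overlapped, at 1473 to 1813 and 1720 to 1968 CPM, as did large A-fibre markers (7 genes), at 5879 to 8018 and 6053 to 7970 CPM. TRPM8 cold neuron markers (5 genes, Trpm8 among them) overlapped too, at 77.6 to 106 and 82.1 to 90.7 CPM. Satellite glia markers (5 genes) were higher in C-coded libraries (2725 to 3314 against 2411 to 2663 CPM), as were spinal cord glia markers (6 genes, 29.3 to 65.0 against 16.7 to 20.9 CPM). Macrophage markers were lower (91.9 to 110 against 114 to 233 CPM), as were neutrophil markers (80.6 to 158 against 251 to 1212 CPM). The part of these cell classes in the channel differences was not tested.

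The genes most like Trpv1 after each library's group mean was subtracted were Hoxa10 (Pearson r = 0.92), Sting1 (0.91) and Hoxc9 (0.91), over 21 libraries and among 14233 genes with a mean of at least 1 CPM. Hox genes encode transcription factors that mark position along the body axis, and those of the more 5' groups are expressed at its more posterior levels. Hoxa10 was at 0 to 0.164 CPM in the 4 C-coded libraries (0 to 11 counts), 26.9 to 31.6 CPM in the 3 L-coded libraries and 31.9 to 42.8 CPM in the 14 LDRG and CFA libraries. Hoxc9 was at 0.0599 to 0.164 CPM in C-coded, 5.08 to 6.18 CPM in L-coded and 4.76 to 6.82 CPM in LDRG and CFA libraries. The correlation describes libraries that share these sets and letters, and the C-coded libraries carry most of the spread. Hoxa10 and Hoxc9 were named by a likeness rule and their levels are a description, without a test.

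**Figure D4:**
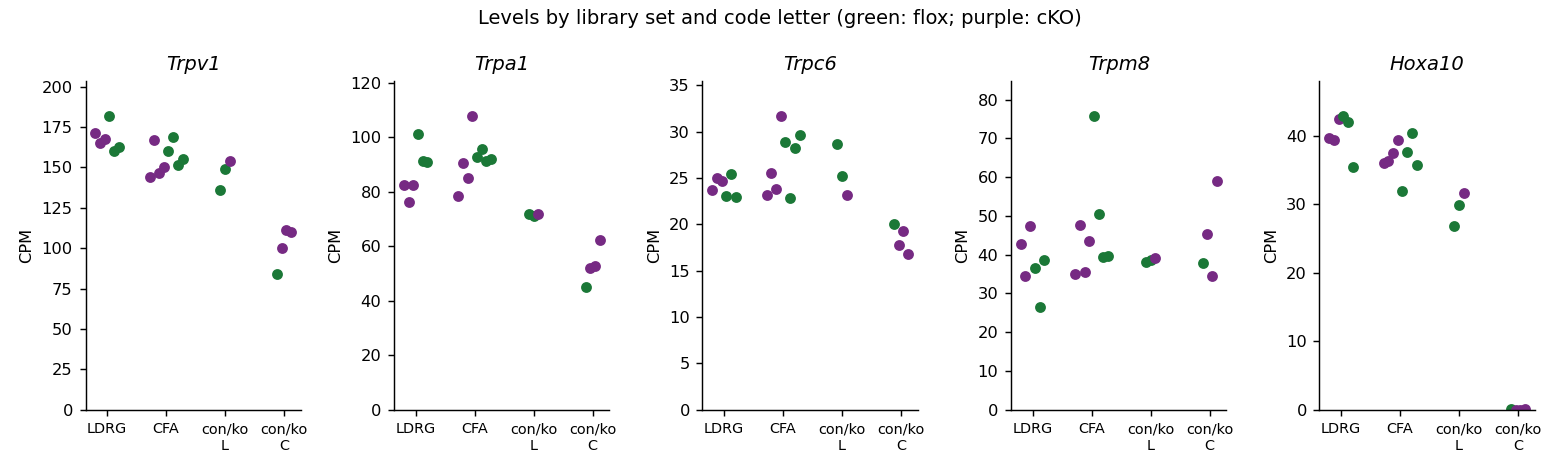
CPM per library for 4 channel genes and Hoxa10 in the LDRG set, the CFA libraries and the con/ko libraries split by the code letter L or C (green flox, purple cKO). The 4 C-coded libraries are lowest for Trpv1 (83.7 to 111 CPM), Trpa1 and Trpc6 and near 0 for Hoxa10, but not for Trpm8.

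Without the C-coded libraries the set difference became smaller. L-coded con/ko against LDRG libraries gave -0.18 for Trpv1 (SE 0.06, adjusted p = 0.0246, edgeR), -0.28 for Trpa1 (SE 0.08, adjusted p = 0.0134) and -0.16 for Trpm3 (SE 0.08, adjusted p = 0.117). In this comparison 6908 genes were called, and 40.9% of 16928 genes had ranges that did not overlap. The ranges of Trpv1, Trpa1, Trpm3 and Trpm4 were among the latter. Trpm4 was then called higher (0.19, SE 0.06, adjusted p = 0.0306), at 33.0 to 33.5 CPM in the L-coded against 28.0 to 30.7 CPM in the LDRG libraries.

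The code letters F and M gave less. Trpm2 was at 33.8, 34.5, 38.9 and 28.0 CPM in the F-coded and 47.8, 42.2 and 48.5 CPM in the M-coded libraries. The letters did not overlap for Trpm2 alone of the 9, and for 7.25% of 16928 genes. Its difference of 0.46 (SE 0.13, unadjusted p = 0.0098) had an adjusted p of 0.45 by edgeR in a comparison that called 0.0365% of 16440 genes and none of the 9. Macrophage markers, a cell type that expresses Trpm2, summed to 91.9 to 114 CPM in F-coded and 110 to 233 CPM in M-coded libraries, and their part was not tested. In the LDRG and CFA libraries, which differ in Xist, Trpm2 overlapped at 34.5 to 43.7 and 38.0 to 48.0 CPM.

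The CFA comparison asked which channels differ between ganglia of the CFA model and untreated ganglia. Against the mean of both untreated sets, and over both genotypes, Trpa1, Trpm3 and Trpc6 were called higher in CFA and none of the 9 lower. In this comparison 32.3% of 16928 genes were called, 16.5% higher and 15.8% lower. All 3 calls disappeared when the LDRG set, which shares a count table with CFA, was the only untreated reference. There, fewer genes were called in all, 2021 of 16928, and none of the 9.

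Trpa1 in the 8 CFA libraries ran from 78.4 to 108 CPM with a median of 91.8 CPM, overlapping the LDRG range of 76.1 to 101 CPM (median 86.6) and lying above all 7 con/ko libraries (45.1 to 71.8 CPM). The pooled difference was 0.33 (SE 0.08, 1.26-fold, adjusted p = 0.00458, edgeR). Against the LDRG set alone it was 0.07 (SE 0.10, adjusted p = 0.684), and against the con/ko set alone 0.59 (SE 0.09, adjusted p = 5.97e-05). Against the 3 L-coded con/ko libraries, an alternative added after the values were seen, it was 0.36 (SE 0.08, adjusted p = 0.00275). Trpa1 is thus the one of the 9 genes whose higher level in CFA passed the test with and without the C-coded libraries, and not against the LDRG set.

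Trpm3 in CFA ran from 72.0 to 93.2 CPM against 78.8 to 86.5 CPM in the LDRG set, which it enclosed (pooled 0.16, SE 0.06, adjusted p = 0.0403, and 0.02, adjusted p = 0.9, against LDRG alone). Trpc6 ran from 22.9 to 31.7 CPM against 22.9 to 25.5 CPM in the LDRG set (pooled 0.22, SE 0.08, adjusted p = 0.0377, and 0.15, adjusted p = 0.341, against LDRG alone). Neither passed against L-coded con/ko libraries (adjusted p = 0.072 and 0.504). Leaving out 1 library ended the Trpm3 call in 10 of 21 cases and the Trpc6 call in 12 of 21, with adjusted p up to 0.102 for Trpm3 and 0.11 for Trpc6, both on leaving out CFA cKO replicate 4.

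The Trpv1 estimate changed sign with the reference. Trpv1 ran from 144 to 169 CPM in CFA, and its difference was -0.11 (SE 0.11, adjusted p = 0.543, edgeR) against the LDRG set, 0.36 (SE 0.10, adjusted p = 0.00652) against the con/ko set and 0.07 (SE 0.06, adjusted p = 0.376) against L-coded con/ko libraries. Pooled, it was 0.13 (SE 0.09, adjusted p = 0.302). With a score for sex as a covariate the pooled Trpv1 difference became 0.40 (adjusted p = 0.0169, edgeR) and that of Trpm2 0.43 (adjusted p = 0.00255). The score hardly varies within the LDRG or the CFA groups, so its term rests on the con/ko libraries. Most C-coded libraries there are also F-coded and the fit held no term for the C or L letter, so the score is partly mixed with that letter. These values therefore do not separate CFA from sex.

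**Figure D5:**
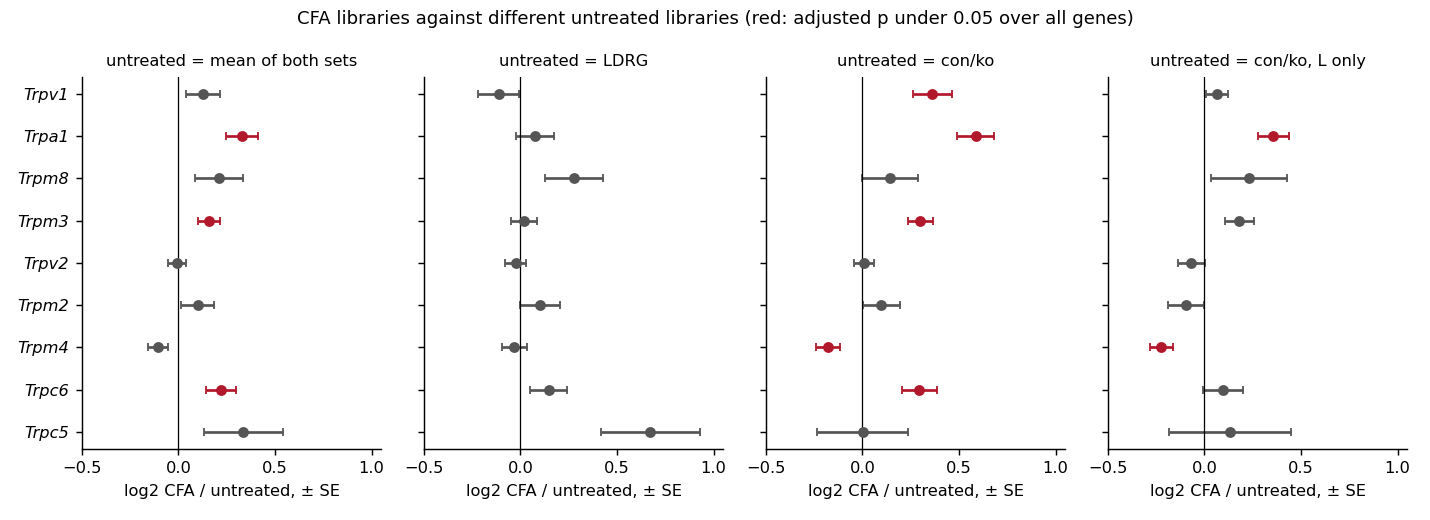
Log2 difference of CFA libraries from untreated libraries, ± SE, with 4 choices of untreated libraries; red marks an adjusted p under 0.05 (edgeR). Trpa1 is at 0.07 against LDRG and 0.59 against con/ko libraries, and no gene is red against LDRG.

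Within genotypes, Trpa1 was called higher in CFA libraries labelled cKO (0.39, SE 0.11, adjusted p = 0.0231, edgeR, with 19% of all genes called), and it was the only one of the 9. That call was lost without CFA cKO replicate 2 (adjusted p = 0.0544) or replicate 4 (0.132), against the LDRG set alone (0.17, adjusted p = 0.597) and against L-coded con/ko libraries (0.34, adjusted p = 0.0723). In those labelled flox none of the 9 was called, against 13.3% of all genes. Trpa1 there was 0.27 (SE 0.12, adjusted p = 0.125), and Trpm8 had the largest estimate, 0.51 (SE 0.18, adjusted p = 0.0669 in edgeR and 0.0275 in DESeq2), which was 0.26 (SE 0.16, adjusted p = 0.336) without the high flox library. The labels do not follow Tmem45b in the CFA libraries, so these within-label differences stand on the labels as given.

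Summed cell type markers also lay at other levels in CFA. Macrophage markers summed to 68.3 to 97.3 CPM against 47.3 to 58.5 CPM in the LDRG set, fibroblast and perineurial markers to 714 to 1121 against 438 to 546 CPM, and peptidergic nociceptor markers to 1546 to 2078 against 2215 to 2677 CPM. Neutrophil markers summed to 23.4 to 74.5 CPM in CFA against 0.776 to 2.92 CPM in the LDRG set, and red cell genes to 207 to 620 against 33.7 to 53.8 CPM. Their part in the channel levels was not tested.

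Among the 19 other TRP family genes, 15 were tested and none was called between genotypes, untreated or in CFA (14 tested), or in the interaction. Between the untreated sets, 4 were higher in con/ko libraries, namely Trpm6 (0.54, SE 0.15), Trpv4 (0.53, SE 0.15), Pkd2 (0.36, SE 0.08) and Mcoln1 (0.14, SE 0.05), and 5 were lower, where 25.7% of all genes were higher and 23% lower. Those lower included Trpc7 (-0.67, SE 0.14), Trpc1 (-0.51, SE 0.05), Pkd2l2 (-0.43, SE 0.06) and Trpc4 (-0.26, SE 0.09). Trpc1 did not overlap between the sets, at 50.1 to 62.8 CPM in the LDRG and 36.3 to 42.6 CPM in the con/ko set. That was common, with 4237 of 16928 genes not overlapping between these sets. The family's median difference was -0.15, beside 0.02 over all genes. In CFA over both genotypes and both sets, 4 were called higher, among them Trpm7 (0.39, SE 0.09), Trpc7 (0.36, SE 0.11) and Trpc1 (0.16, SE 0.04), and none lower, where 16.5% of all genes were higher and 15.8% lower. These differences are from the mean of both untreated sets. The mean of Trpc1 was 51.6 CPM in CFA, below the 55.2 CPM of the LDRG set and above the 38.8 CPM of the con/ko set. That of Trpc7 was 3.59 CPM in CFA, 3.52 in the LDRG and 2.23 in the con/ko set. Trpm7 averaged 93.4 CPM in CFA, above 75.3 and 67.6 CPM, although its CFA range of 70.5 to 133 CPM overlapped that of the LDRG set (71.2 to 80.2 CPM).

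Of 27 genes that act on TRP channels, 26 were tested and none was called between genotypes (25 tested in CFA) or in the interaction. Between the untreated sets 12 were lower in con/ko libraries and 2 higher, where 23% of all genes were lower and 25.7% higher, and the list median was -0.13. Those lower included Pirt, a membrane protein that binds and regulates TRPV1 and TRPM8 (-0.51, SE 0.07), Tmem100, an adaptor between TRPA1 and TRPV1 (-0.72, SE 0.08), and Prkaca, a catalytic subunit of protein kinase A (-0.60, SE 0.06). The store-operated calcium channel Orai1 was among those higher (0.47, SE 0.13). In CFA over both genotypes, Ppp3ca, the catalytic subunit of calcineurin (0.23, SE 0.03), Plcb1 (0.27, SE 0.05), Prkce (0.20, SE 0.03) and Prkca (0.16, SE 0.05) were higher, and Tmem100 (-0.22, SE 0.06), Cdk5 (-0.16, SE 0.04) and Gna11 (-0.13, SE 0.03) lower, that is 4 and 3 of the 26. The direction of Tmem100 depends on the reference, its mean being 48.2 CPM in CFA, 71.6 in the LDRG and 43.8 in the con/ko set. For the other 6 the CFA mean lay on the same side of both sets' means. The list median there was -0.02, the same as over all genes.

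The 9 genes varied together only in part. Over the 21 libraries Trpv1 and Trpa1 had a Pearson r of 0.89 (0.86 after group means were subtracted), and Trpa1 and Trpm3 0.82 (0.63). Trpv1 and Trpm8 had r = -0.01, and Trpv1 and Trpm4 -0.37. These are descriptions over libraries that share sets, letters and depth. The gene most like Trpa1 over 21 libraries was Zmat4 (r = 0.96), at 35.6 to 41.9 CPM in C-coded, 49.7 to 52.1 CPM in L-coded and 55.8 to 69.6 CPM in LDRG and CFA libraries. Car8, which encodes a carbonic anhydrase-related protein, was the most like Trpv1 (r = 0.93), Kmt2e the most like Trpm8 (0.83), Nav1 the most like Trpm3 (0.95), Dpp3 the most like Trpv2 (0.79), Baz2a the most like Trpm2 (0.88), Ttyh3 the most like Trpm4 (0.84) and Dpp10 the most like Trpc6 (0.92). Trpc5 lay under the mean of 1 CPM required for this ranking.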

How the data were processed

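Poly-A RNA of 21 mouse dorsal root ganglion samples was sequenced as paired 150-base reads, per the labels' protocols. The authors deposited raw read counts per gene in 2 tables, of 14 and 7 libraries. The submitters' processing notes name fastp 0.23.2, BWA 2.2.1, SAMtools 1.14, DESeq2 1.40.2 and mm10, but no counting tool. Groups came from sample titles and library names. The genotype field of the labels was not used: it names the Cre genotype for all 21 samples, also for those titled flox. With R 4.3.3, the 24381 shared genes were filtered (edgeR 4.0.16 filterByExpr, minimum count 10, total 15), TMM-normalized and tested with quasi-likelihood F tests, Benjamini-Hochberg adjusted over all genes and called under 0.05. Untreated genotypes were compared with the set as a term, CFA genotypes among 8 libraries over their table's 24524 genes, and other contrasts in 1 fit of 6 groups, where untreated is the mean of both sets. CPM used TMM-adjusted library sizes.

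The 9 genes are named throughout, other TRP and signalling genes from fixed lists where called, and like genes by Pearson r of log2(CPM + 1), the 3 highest. The members and lists were chosen with earlier results of these data known. DESeq2 1.42.0, RLE size factors, other filters, a sex score, each set alone, a replicate block and leaving out libraries were the alternatives. The code letter comparisons were added after the data were seen. The tests were checked on simulated counts. Some genes of the lists are counted but not reported here by name.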

Additional observations from a re-analysis of the deposited data

Results flagged for a closer look

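Trpm4 in con/ko cKO replicate 5 was 25.1 CPM, far below the other 3 libraries of its group, at 33.5 to 34.8 CPM. The gap to the nearest of them was 0.862 of the group's whole range, above the critical value of 0.829 for 4 libraries. It was the only such library for the 9 genes in 27 groups of values tested, and chance alone gives about 5% of groups such a gap.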

How the results depend on the processing

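For the 9 genes, no difference called in the main tests reversed direction under any alternative. Other genes were not checked for this, and the CFA means of Tmem100 and Trpc1 lay between those of the untreated sets, as given above. The alternatives were not compared with each other. In CFA, Trpv1 was not called in the main test, was called higher against the con/ko set and was lower, without a call, against the LDRG set. The number of genes called moved with the untreated reference and with the tool. Against the LDRG set alone, CFA calls fell to 633 in flox, 211 in cKO and 2021 over genotypes, and against the con/ko set alone they were 5826, 6653 and 8812, beside 2252, 3220 and 5470. Against L-coded con/ko libraries, flox calls were 5425. Of the 9 TRP genes, the LDRG set alone left 0 called in cKO and 0 over genotypes, the con/ko set alone gave 1 in flox, 3 in cKO and 5 over genotypes, and L-coded libraries gave 1 in flox and 0 in cKO. With a sex score 3 were called in flox and 3 in cKO, beside 2626 and 3453 of all genes, and with DESeq2 1 in flox, beside 3030. The limit of the sex score given with Trpv1 applies to these counts. DESeq2 called 34 genes between untreated genotypes, 19 between CFA genotypes, 8 in the interaction, 44 in the genotype by set test, 1442 between C and L and 272 between M and F, where edgeR called 1, 0, 0, 0, 224 and 6. The untreated genotype count was 3 in the LDRG and 40 in the con/ko set alone. Between C and L the count was 16 without the low-count filter and 14 with the F or M letter as a term, with none of the 9 (0) called in either, and 3 of the 9 were called with DESeq2.

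Leaving out 1 library at a time gave 1 to 44 genes called between untreated genotypes, 0 to 2 in CFA, 0 to 1 in the interaction, 0 to 3 in the genotype by set test, 1178 to 2422 for CFA in flox, 1641 to 3584 in cKO, 12 to 536 between C and L and 1 to 10 between M and F. Of the 9 genes it left 0 to 1 called in flox, 0 to 2 in cKO, 1 to 4 over genotypes and 0 to 1 between C and L. Replicate numbers did not pair the samples (same-numbered libraries had correlated deviations of -0.144 to 0.221). With the replicate block, 1 gene was called between untreated genotypes, 0 in CFA and 3 in the interaction, none of them among the 9. Depth limits Trpc5, at 20 to 90 counts per library, more than the other 8 genes.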
